A study of Mus musculus with 11 samples.

Results

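The genes described here are 10 genes of cytotoxic lymphocytes, of 18193 genes with a probe set on the arrays. They are the granzyme genes Gzma, Gzmb and Gzmc, the perforin gene Prf1, the granule gene Nkg7 and the cysteine protease gene Ctsw. The others are the surface protein genes Klrd1, Ms4a4b and Il2rb, and the receptor adaptor gene Fcer1g. All 10 were chosen by name, with earlier results of these data known. Every probe set that the platform annotation gives to 1 of these symbols alone was taken, which made 13 probe sets of 34945. Keratinocytes were isolated from back skin of K5-myrAkt(L84) mice, a transgenic line in which the keratin 5 promoter drives activated Akt in basal keratinocytes and follicle cells. All 11 arrays carry this transgene, and no fraction without it was analysed here. Cells were labelled against CD34, which marks the stem cells of the follicle bulge, and parted on magnetic beads into CD34+ cells (5 arrays) and CD34- cells (6 arrays). The cell type label calls both fractions hair follicle stem cells, whereas the design text says so for the CD34+ fraction only. Age, treatment and pooling are not stated, nor is it stated that arrays came from separate mice, and the p-values therefore rest on sample-to-sample spread that may be technical.

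Cytotoxic lymphocytes kill a bound cell by releasing granules. Perforin opens the target membrane and lets granzymes, a family of serine proteases, enter and start cell death. In mouse skin the epidermis itself holds resident gamma delta T cells, which lie between keratinocytes and are known to carry such granules. Both fractions are bulk samples, in which fewer cells of a type and less RNA per cell cannot be told apart.

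Of the 10 genes, 7 were bright enough on their brightest probe set to be tested, and of these 6 were lower in CD34+ cells, 0 were higher and 1, Fcer1g, was not called. Over all 10916 genes tested, 24.7% were called at an adjusted p under 0.05 (limma), and 12.3% of all genes tested were called lower in CD34+ cells. The 5 lowest members, Ms4a4b, Prf1, Gzmc, Ctsw and Klrd1, each differed by more than 2-fold and did not overlap between the fractions. Among all genes tested, 2.12% were called and at least 2-fold lower, and 7.37% were lower without overlap. The mean signals of Ms4a4b and Prf1 on CD34+ arrays, 5.91 and 6.55, lay under the lowest mean of a tested gene, 6.59, so both passed through their CD34- signal alone and had to differ. Gzma, Gzmb and Il2rb did not pass as genes. The values are log2 signals made with MAS5, which scales every array to a common mean, and differences are CD34+ minus CD34-.

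**Figure D1:**
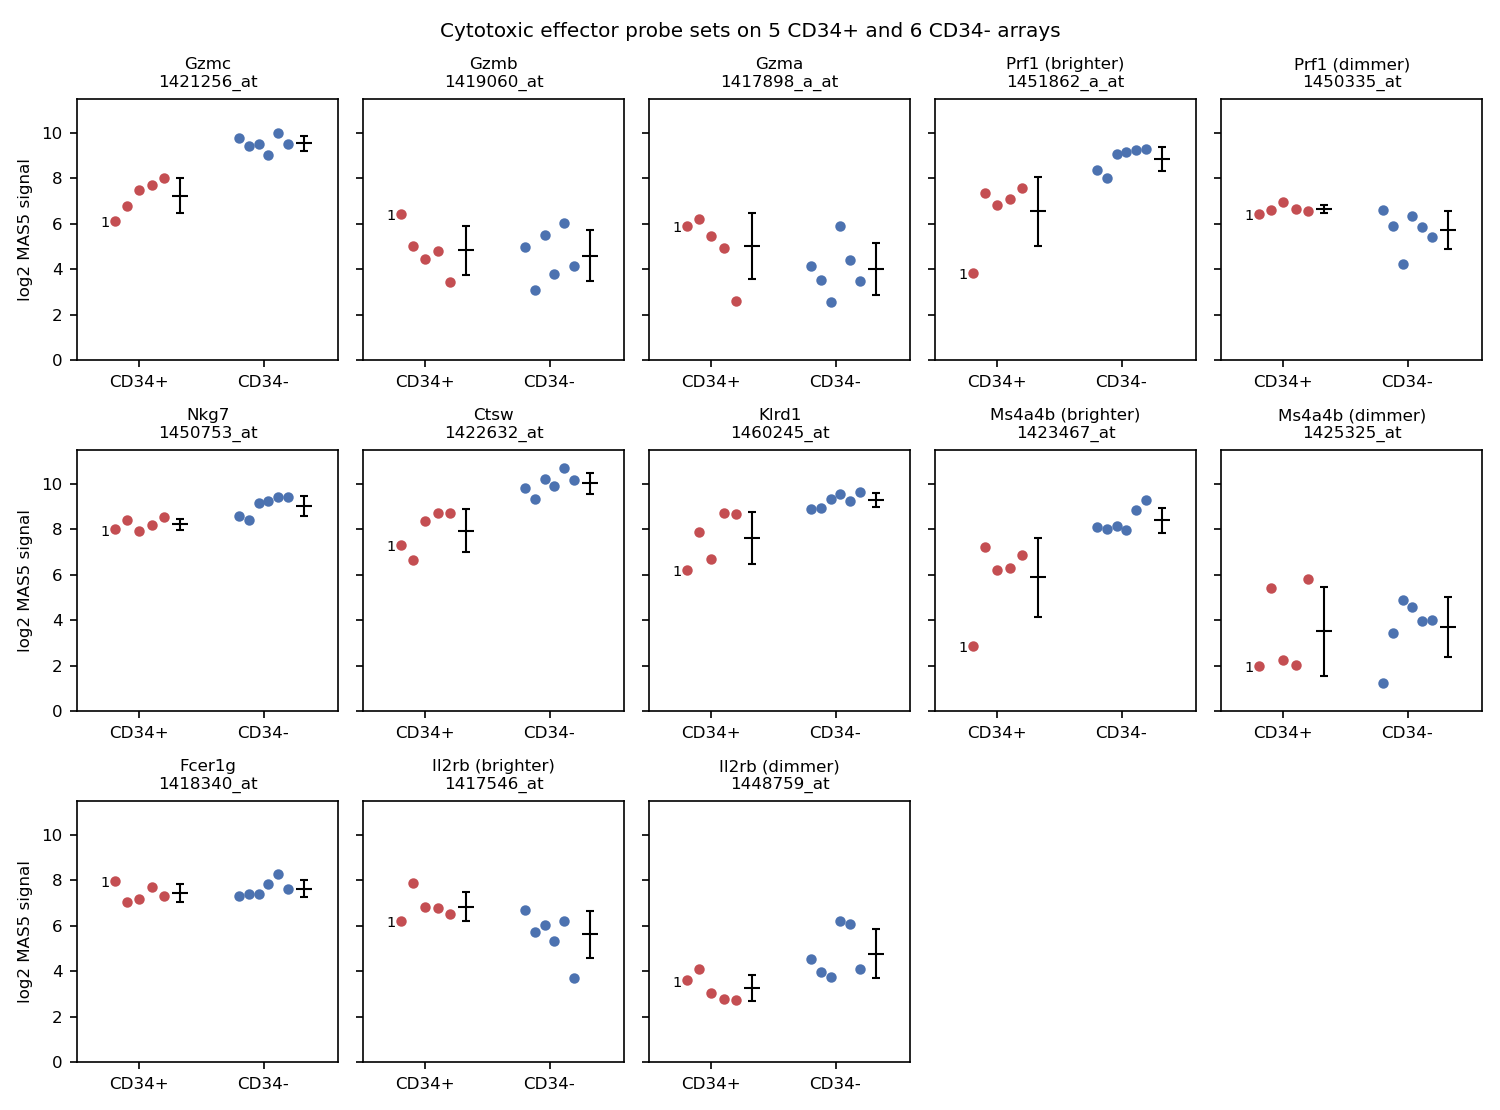
Log2 MAS5 signal (vertical axis) of the 13 probe sets on 5 CD34+ arrays (red) and 6 CD34- arrays (blue), 1 point per array, with CD34+ array 1 marked and black bars for mean and SD. Gzmc, Ctsw, Klrd1 and the brighter probe sets of Prf1 and Ms4a4b show no overlap between the fractions, while Gzma, Gzmb, Nkg7, Fcer1g, both Il2rb probe sets and the dimmer ones of Prf1 and Ms4a4b overlap.

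The sort and the RNA were checked on the same arrays. Cd34 differed by 7.63 (SE 0.69, limma adjusted p = 1.21e-05) without overlap. The actin 3-prime to 5-prime ratio, which rises as RNA or its labelled copies become shorter, was 5.25, 4.56, 3.97, 2.91 and 3.06 on CD34+ arrays 1 to 5 and 2.19 to 2.76 on CD34- arrays (log2). It therefore moved with the fraction, most on CD34+ arrays 1 to 3, and its part in the differences was not tested apart from the fits given with them. Scaling also matters: with equal medians the median difference over all genes tested went from 0.00 to -0.48, and 92.9% of called genes were lower in CD34+ cells, against 49.9% as deposited.

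Of the 3 granzymes only Gzmc was bright enough to be tested. Gzmc, a granzyme gene of the cluster on chromosome 14, had log2 signals of 6.14, 6.81, 7.48, 7.73 and 8.04 on CD34+ arrays 1 to 5, and of 9.05 at the lowest, 9.51 at the median and 10.01 at the highest on the 6 CD34- arrays. Every CD34- array was above every CD34+ array. The mean was 7.24 ± 0.76 (SD, n = 5) against 9.55 ± 0.32 (SD, n = 6), a difference of -2.31 (SE 0.30, limma adjusted p = 2.04e-04), so that the signal was 4.97-fold higher in CD34- cells.

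Gzmb, the granzyme best known for cleaving caspases in the target, and Gzma, a tryptase-like granzyme, were dim in both fractions. Gzmb had signals of 6.45, 5.03, 4.46, 4.81 and 3.47 on CD34+ arrays and 3.10, 4.58 and 6.06 at the lowest, median and highest of the CD34- arrays. The groups overlapped throughout, and the difference of 0.24 became -0.34 after quantile normalization and -0.24 with equal medians (two-sided exact permutation p = 0.721 for the values as deposited, not adjusted). Gzma gave 5.91, 6.20, 5.46, 4.96 and 2.61 on CD34+ arrays against 2.58, 3.84 and 5.92 at the lowest, median and highest on CD34- arrays, with overlap and a difference of 1.01 (two-sided exact permutation p = 0.21, not adjusted). That difference was 0.47 after quantile normalization, 0.53 with equal medians and 1.62 without CD34+ array 5. Gzmb lay under the 40th percentile of the array on 4 of 5 CD34+ and 5 of 6 CD34- arrays, and Gzma on 5 of 5 and 5 of 6. No detection calls were used, so these signals are dim values and do not show that the transcripts were absent.

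In the RefSeq gene order Gzme, Gzmd, Gzmg, Gzmn, Gzmf, Gzmc and Gzmb follow each other on mouse chromosome 14, with pseudogenes and small nucleolar RNA genes between some of them. The probe sets of Gzmd, Gzme, Gzmf, Gzmg and Gzmn reached the 40th percentile on 0 of 11 arrays, so Gzmc was the only gene of this run whose probe set passed the brightness filter. Whether the Gzmc probe set also takes up transcripts of these related genes was not tested. The promoter windows of Gzmc and of its neighbour Gzmb are shown because both are members of this run of genes, and that of Prf1 because its product acts with granzymes. Each runs from 250 bases before to 50 after the RefSeq start in GRCm38.p6, 5′ to 3′ on the strand of the gene, and capitals mark matches on either strand to TGTGGT, the core bound by Runx factors.
Gzmc, chr14:56234608-56234907, - strand: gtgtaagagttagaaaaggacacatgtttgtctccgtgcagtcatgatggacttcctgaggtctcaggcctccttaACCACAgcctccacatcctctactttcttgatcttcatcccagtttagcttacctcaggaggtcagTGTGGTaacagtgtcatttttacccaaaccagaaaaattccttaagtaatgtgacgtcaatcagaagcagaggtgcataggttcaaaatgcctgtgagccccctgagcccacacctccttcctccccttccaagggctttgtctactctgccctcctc
Gzmb, chr14:56262285-56262584, - strand: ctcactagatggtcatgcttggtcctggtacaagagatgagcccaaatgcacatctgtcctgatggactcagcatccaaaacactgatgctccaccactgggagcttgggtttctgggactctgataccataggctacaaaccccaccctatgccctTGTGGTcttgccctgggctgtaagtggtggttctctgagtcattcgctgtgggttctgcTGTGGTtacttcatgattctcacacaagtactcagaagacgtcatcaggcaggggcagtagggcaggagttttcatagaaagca
Prf1, chr10:61297586-61297885, + strand: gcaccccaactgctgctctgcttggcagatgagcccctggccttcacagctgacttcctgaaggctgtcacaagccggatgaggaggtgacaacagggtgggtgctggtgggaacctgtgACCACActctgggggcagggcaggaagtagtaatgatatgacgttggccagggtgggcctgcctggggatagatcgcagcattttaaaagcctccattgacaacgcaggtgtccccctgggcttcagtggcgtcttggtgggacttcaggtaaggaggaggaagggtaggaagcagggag
The sequences show 2 matches in Gzmc, 2 in Gzmb and 1 in Prf1. RefSeq windows were found for 7 of the 10 genes, and 6 of the 7 held TGTGGT or its reverse complement, against 16.8% of all 32851 windows of that length. Windows of the same gene or of gene families are not independent, so no test was made. The match was in Gzmc, Prf1 and Nkg7, which were lower in CD34+ cells, and also in Gzmb, Gzma and Fcer1g, which were not called or not tested. Ms4a4b was the member without it. TCACACC, a sequence bound by T-box factors, was in 1 of 7 windows (3.98% of all), and GGAAA, the core bound by NFAT, in 4 of 7 (61.3% of all). A match does not show that a factor binds.

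Prf1, whose product forms the pore, gave differences of opposite sign by probe set, of which that of the brighter one was called. Its brighter probe set had signals of 3.86, 7.36, 6.86, 7.10 and 7.59 on CD34+ arrays and 8.02, 9.13 and 9.29 at the lowest, median and highest of the CD34- arrays. All CD34+ arrays were lower, and array 1 lay far under the others. The mean was 6.55 ± 1.53 (SD, n = 5) against 8.87 ± 0.53 (SD, n = 6), a difference of -2.32 (SE 0.54, limma adjusted p = 0.00857), and of -1.64 without CD34+ array 1. The dimmer probe set had 6.44, 6.64, 6.97, 6.65 and 6.58 on CD34+ arrays against 4.26, 5.88 and 6.60 at the lowest, median and highest on CD34- arrays. There most CD34+ arrays lay at or above the upper end of the CD34- arrays, with a difference of 0.92 (SE 0.39, limma adjusted p = 0.106 over 20967 probe sets tested). It was 0.39 after quantile normalization and 0.44 with equal medians, and with a CD34- mean of 5.74, under the lowest tested mean of 6.06, this probe set was tested through its CD34+ signal alone. The mean of both probe sets differed by -0.70 and was not called (limma adjusted p = 0.169), so the direction of Prf1 rests on its brighter probe set.

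Nkg7, a membrane protein of cytotoxic granules that takes part in their release, had signals of 8.004, 8.43, 7.95, 8.18 and 8.54 on CD34+ arrays and 8.41, 9.20 and 9.43 at the lowest, median and highest of the CD34- arrays. The fractions overlapped in this narrow range, CD34- array 2 lying within the CD34+ range and array 1 just above it. The difference was -0.82 (SE 0.21, limma adjusted p = 0.0146), the smallest of the 6 called members.

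Ctsw, cathepsin W, a cysteine protease gene of NK and cytotoxic T cells, had signals of 7.31, 6.64, 8.36, 8.74 and 8.71 on CD34+ arrays and 9.32, 10.04 and 10.72 at the lowest, median and highest of the CD34- arrays. CD34+ array 2 was lowest, and no array of 1 fraction reached the other. The mean was 7.95 ± 0.93 (SD, n = 5) against 10.03 ± 0.47 (SD, n = 6), a difference of -2.08 (SE 0.36, limma adjusted p = 0.00152), or 4.23-fold.

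Among the surface protein genes, Klrd1, which encodes CD94, the partner of NKG2 receptors, had signals of 6.22, 7.88, 6.70, 8.73 and 8.67 on CD34+ arrays and 8.91, 9.31 and 9.64 at the lowest, median and highest of the CD34- arrays. The CD34+ arrays spread widely, arrays 4 and 5 coming close to the CD34- arrays without reaching them. The difference was -1.64 (SE 0.40, limma adjusted p = 0.0104), and -0.58 (SE 0.21, adjusted p = 0.0715) with CD34+ arrays 4 and 5 as the only CD34+ arrays.

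Ms4a4b, a membrane protein gene of T cells from the MS4A family, had on its brighter probe set signals of 2.89, 7.24, 6.22, 6.33 and 6.86 on CD34+ arrays and 7.96, 8.13 and 9.31 at the lowest, median and highest of the CD34- arrays. Array 1 was again far lower than the other CD34+ arrays. The difference was -2.50 (SE 0.61, limma adjusted p = 0.0109), and -1.74 without array 1. When dim values were raised to the 40th percentile of their array, Ms4a4b differed by -1.80 and Prf1 by -1.81, both still called. The dimmer Ms4a4b probe set never reached the 40th percentile and ranged from 1.99 to 5.84 on CD34+ and from 1.23 to 4.91 on CD34- arrays, with a difference of -0.18 (two-sided exact permutation p = 0.855, not adjusted). The mean of both probe sets differed by -1.34 and was not called (limma adjusted p = 0.156).

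Fcer1g, the gamma chain that signals for Fc receptors and is made by NK cells, mast cells and myeloid cells, did not follow the called members. Its signals were 7.99, 7.05, 7.19, 7.73 and 7.32 on CD34+ arrays and 7.32, 7.52 and 8.30 at the lowest, median and highest of the CD34- arrays. The fractions overlapped over most of their range. The difference was -0.19 (SE 0.24, limma adjusted p = 0.587), with a 95% interval of -0.71 to 0.33. It was -0.53 after quantile normalization and, with equal medians, -0.67 and called (adjusted p = 0.0461).

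Il2rb, the beta chain that receptors for interleukin 2 and interleukin 15 share, also gave opposite values by probe set. The brighter probe set had 6.22, 7.89, 6.85, 6.79 and 6.51 on CD34+ arrays and 3.70, 5.89 and 6.70 at the lowest, median and highest of the CD34- arrays, overlapping, with a difference of 1.23 (SE 0.49, limma adjusted p = 0.0881 over the probe sets tested). Its CD34- mean of 5.63 lay under the lowest mean of a tested probe set, 6.06, so it was tested through its CD34+ signal alone. The dimmer probe set had 3.60, 4.11, 3.04, 2.80 and 2.76 on CD34+ arrays and 3.77, 4.32 and 6.22 at the lowest, median and highest on CD34- arrays, a difference of -1.52 (two-sided exact permutation p = 0.0195, not adjusted). When dim values were raised to the 40th percentile this turned to 0.39. However, on 5 of 5 CD34+ and 4 of 6 CD34- arrays the value was then the floor itself. That floor is set per array, and the dimmer Ms4a4b probe set, under it on every array, then differed by 0.55. The 0.39 therefore largely reflects the floor. As the probe sets gave opposite signs, no direction is given for Il2rb. Of the 9 member probe sets tested by themselves, 6 were lower and 0 higher in CD34+ cells, against 20.7% called in either direction and 9.77% called lower over all probe sets tested.

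**Figure D2:**
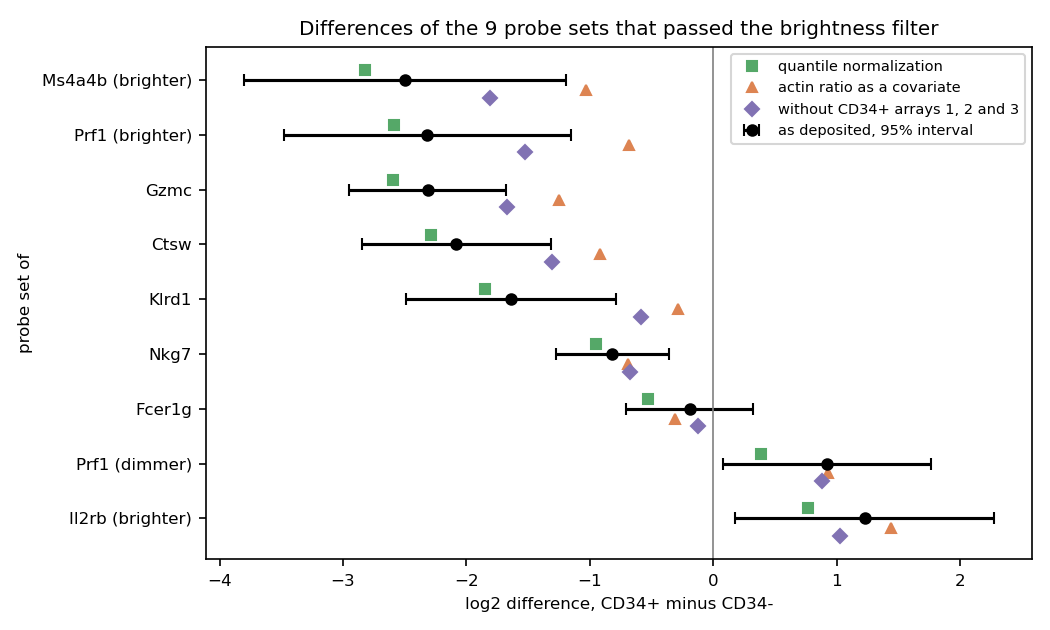
Log2 difference, CD34+ minus CD34- (horizontal axis), of the 9 probe sets that passed the brightness filter. Black points and bars give the values as deposited with 95% intervals, and coloured marks the same difference under 3 other settings (quantile normalization, a fit that holds the actin ratio, and a fit without CD34+ arrays 1, 2 and 3). The 6 called members stayed under 0 in each of these and lay nearer to 0 than as deposited when the actin ratio was held.

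The called members were compared array by array. All 6 were picked as called lower in CD34+ cells, so a lower median on CD34+ arrays was largely fixed by that choice. Their median deviation from the CD34- mean was -3.24, -1.45, -2.04, -1.53 and -1.30 on CD34+ arrays 1 to 5 and -0.51 to 0.43 on CD34- arrays. CD34+ array 1, with the highest actin ratio, was lowest, while arrays 4 and 5, with ratios of 2.91 and 3.06, were also below every CD34- array. Those ratios too lay above every CD34- array (2.19 to 2.76), so ratio and fraction moved together there as well. With the actin ratio as a covariate 0 of the 6 were called (limma, 2 with an unadjusted p under 0.05). Gzmc then differed by -1.25 (SE 0.31, adjusted p = 0.0751), Ms4a4b by -1.03 (SE 0.86, adjusted p = 0.652), Ctsw by -0.92 (SE 0.42, adjusted p = 0.363), Nkg7 by -0.69 (SE 0.34, adjusted p = 0.409), Prf1 by -0.68 (SE 0.68, adjusted p = 0.718) and Klrd1 by -0.29 (SE 0.45, adjusted p = 0.831). Over all genes that fit called 126 in place of 2697. Without CD34+ arrays 1, 2 and 3, which had the highest ratios, Ms4a4b (-1.81), Gzmc (-1.67), Prf1 (-1.52) and Ctsw (-1.31) were still called, and Klrd1 and Nkg7 (-0.68, adjusted p = 0.106) were not.

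**Figure D3:**
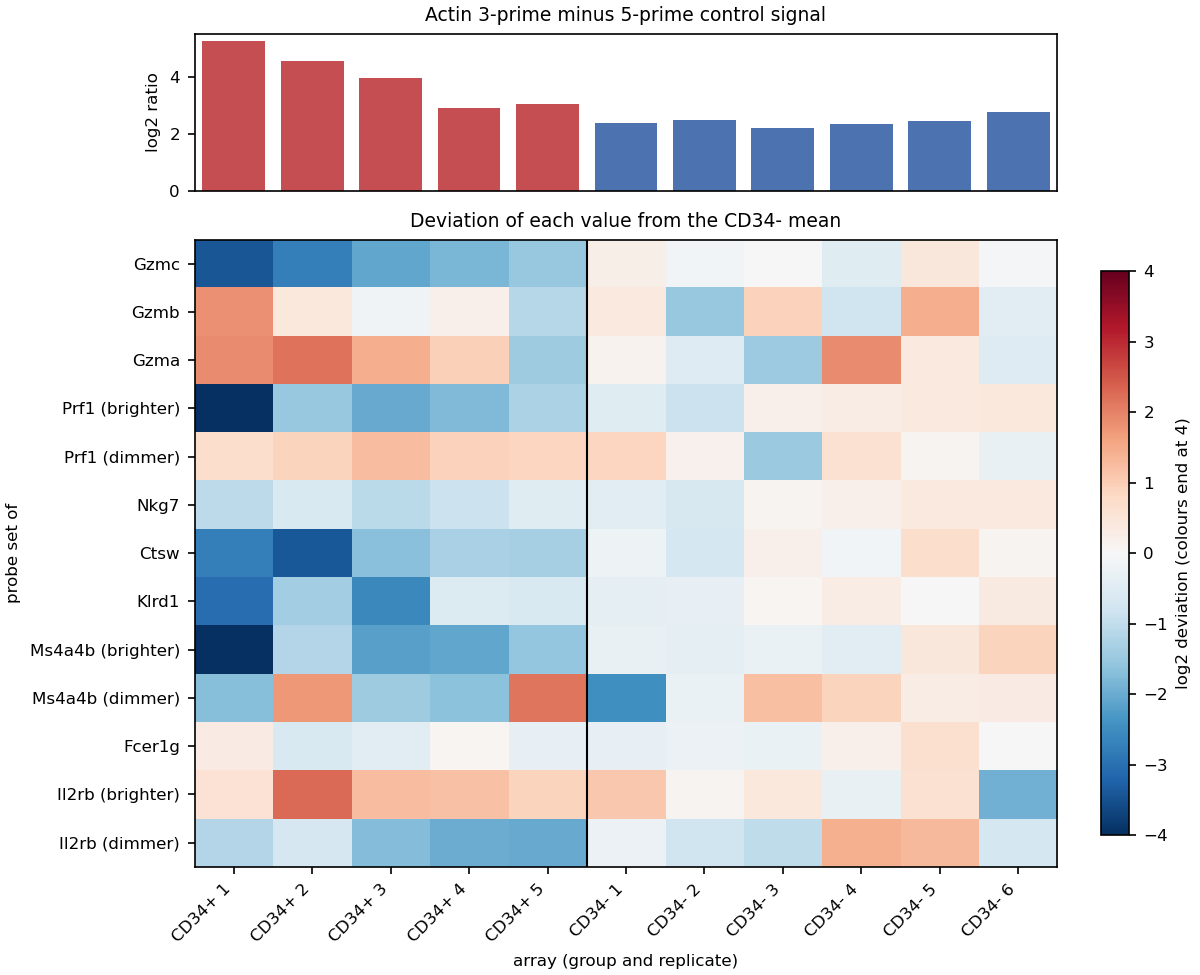
Upper panel: actin 3-prime minus 5-prime log2 ratio of each array (bars from 0; red CD34+, blue CD34-). Lower panel: log2 deviation of each of the 13 probe sets from its CD34- mean on each array, with colours ending at 4 in either direction. The blue field of Gzmc, Ctsw, Klrd1 and the brighter probe sets of Prf1 and Ms4a4b covers all 5 CD34+ arrays. For each of these except Ctsw it is deepest on array 1.

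As a description, the 15 pairs of the 6 called members had a median Pearson r of 0.83 over the 11 arrays (lowest 0.73, highest 0.97). With group means removed the median was 0.59, and 0.34 also without CD34+ array 1. These points share the same arrays and the same RNA quality, and the fraction difference is part of the first value. By the same measure over 11 arrays, the tested gene most like Prf1 was Cdca7l (r = 0.99), followed by Wdr36 and Antxr2 (both 0.98). Cdca7l was also the most like Ms4a4b (r = 0.98), followed by 1700025G04Rik and by Prf1 itself (both 0.97). Gzmc was most like Nfx1, Sucla2 and Oser1 (each 0.98), Ctsw like Cops5 (0.98), Sntb1 and Sppl2a (both 0.97), Klrd1 like Elk4, Usp1 (both 0.98) and Pcgf5 (0.97), and Nkg7 like Hpse (0.97), Cdh13 (0.95) and Antxr1 (0.94).

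Markers of other cells moved as well. The summed linear signal of 13 T cell markers was 693 to 2453 on CD34+ arrays and 3146 to 5394 on CD34- arrays, without overlap. Of 8 T cell markers tested 6 were lower and 0 higher, with a median of -1.95, against 12.3% called lower over all genes tested. However, Cd7 and Cd163l1 passed the brightness filter through their CD34- signal alone (CD34+ means 5.10 and 5.49) and had to differ. Among the 6 were Cd3g (-2.69, SE 0.78, limma adjusted p = 0.0242) and Thy1 (-1.20, SE 0.26, adjusted p = 0.00638). Of 5 leukocyte markers tested 2 were lower and 0 higher. These were Ptprc, the CD45 gene of all leukocytes (-1.81, SE 0.40, limma adjusted p = 0.00626), and Coro1a. Laptm5 (-0.78, adjusted p = 0.0678), Cd52 (-0.88, adjusted p = 0.116) and Cd53 (-0.33, adjusted p = 0.28) were not called. Cd8a was above the 40th percentile on all 11 arrays and differed by 0.45 (SE 0.25, adjusted p = 0.208). Cd4 and Cd8b1, and the NK cell markers Ncr1 and Klra8, reached the 40th percentile on 0 of 11 arrays, and Eomes on 1 CD34+ array. The summed NK cell markers were 78.3 to 240 on CD34+ and 46.8 to 97.9 on CD34- arrays. The T cell sum was lowest on CD34+ array 1, the array on which Prf1, Ms4a4b, Gzmc and Klrd1 were lowest, and its part in the members' differences was not tested.

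**Figure D4:**
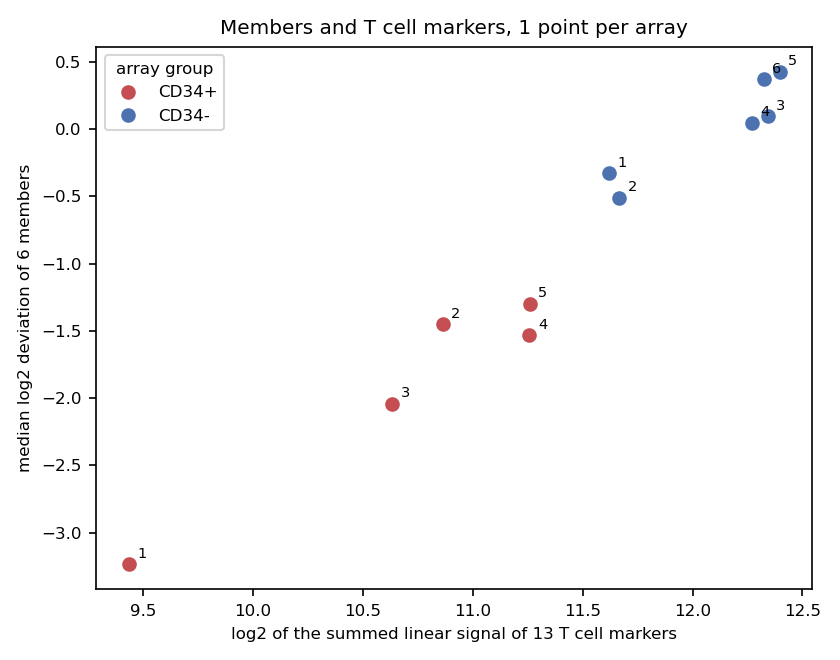
Median log2 deviation of the 6 called members from the CD34- mean (vertical axis) against the log2 of the summed linear signal of 13 T cell markers (horizontal axis), 1 numbered point per array, red CD34+ and blue CD34-. CD34+ array 1 is lowest on both axes, and all CD34- arrays lie above all CD34+ arrays on both. On the vertical axis this separation was largely fixed, because the 6 members were picked as called lower in CD34+ cells.

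Myeloid markers went the other way. Of 11 tested, 6 were higher and 0 lower in CD34+ cells (median 0.80), against 12.4% called higher over all genes tested. H2-Aa was among the 6 (0.95, SE 0.25, limma adjusted p = 0.0145), while H2-Eb1 differed by 0.39 (adjusted p = 0.43). C1qb, among the 6, passed the brightness filter through its CD34+ signal alone (CD34- mean 6.39). The summed signal of the 15 myeloid markers was 7145 to 18605 on CD34+ and 5024 to 8361 on CD34- arrays. This moved beside Fcer1g, which such cells also make, and its part in the small difference of Fcer1g was not tested. The mast cell markers Cpa3, Mcpt4, Cma1, Tpsb2, Ms4a2, Hdc and Gata2 did not pass the brightness filter, and Kit, which melanocytes also make, was lower (-1.33, SE 0.24, adjusted p = 0.00195). No B cell or endothelial marker passed it either.

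The wider machinery of cytotoxic cells was read from lists that hold none of the 10 members. Over all lists 107 genes were named, 91 had a probe set and 53 were tested, of which 8 were lower and 7 higher in CD34+ cells, with a median difference of -0.20 against 0.00 over all genes tested. That is near the 12.3% lower and 12.4% higher over all genes. In the list of other granule proteins 1 of 6 was lower, Ctsh, a lysosomal cysteine protease (-0.55, SE 0.14, limma adjusted p = 0.0115). Serglycin (Srgn), the proteoglycan that packs granzymes, differed by -0.30 (adjusted p = 0.44), and Ctsc, which activates granzymes, by -0.28 (adjusted p = 0.207).

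Genes of granule release were mostly not called, with 3 of 10 lower and 0 higher. These were Rab27a, a small GTPase of granule docking (-1.35, SE 0.39, limma adjusted p = 0.0242), Lyst, which acts in lysosome and granule trafficking (-0.90, SE 0.20, adjusted p = 0.00686), and Coro1a, an actin regulator of leukocytes (-1.07, SE 0.30, adjusted p = 0.021). Rab27a and Lyst also act in melanocytes, whose summed markers were 3923 to 5373 on CD34+ and 3325 to 21856 on CD34- arrays. On CD34- arrays 3 to 6 alone the sum was 3325 to 5086. Its part in the differences of Rab27a and Lyst was not tested. Unc13d (0.25, adjusted p = 0.52) and Stx11 (-0.12, adjusted p = 0.728), which prime and fuse granules, did not pass the test.

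Receptors and their adaptors were split. Of 19 NK-type receptor genes 4 were tested, with a median difference of -0.37. Klrg1, an inhibitory receptor, was higher in CD34+ cells (1.11, SE 0.27, limma adjusted p = 0.01). With a CD34- mean of 6.44 it passed the brightness filter through its CD34+ signal alone and had to differ. Cd244a (-1.94, SE 0.79, adjusted p = 0.0842, without overlap), Cd96 (-0.97, SE 0.34, adjusted p = 0.05004) and Cd160 (0.23, adjusted p = 0.665) were not called. With a CD34+ mean of 5.57, Cd244a had passed through its CD34- signal alone. Klrc1, which encodes the NKG2A partner of CD94, was dim, with means of 3.61 ± 1.67 (SD, n = 5) and 5.94 ± 0.46 (SD, n = 6) that did not overlap, and was not tested. In the list of adaptors and kinases 4 of 9 were higher and 0 lower: Tyrobp, an adaptor of NK and myeloid cells (0.85, SE 0.25, adjusted p = 0.0252), Zap70 (1.12, SE 0.19, adjusted p = 0.0014), Fyn (1.35, SE 0.23, adjusted p = 0.00137) and Plcg2 (0.56, SE 0.13, adjusted p = 0.00668). Cd247, the zeta chain of the T cell receptor, did not pass the brightness filter on means of 5.22 against 7.50, without overlap. Lcp2 did not pass it either, on means of 4.75 against 6.87, also without overlap. Of the tested genes of this list that were not called, Lat (-1.25, SE 0.59, adjusted p = 0.13) and Vav1 (0.68, SE 0.28, adjusted p = 0.091) differed most. In the list of receptor ligands 1 of 4 was lower, Cxadr (-0.88, SE 0.17, adjusted p = 0.00281), while H60c, a ligand of NKG2D made by keratinocytes, differed by -0.18 (adjusted p = 0.558).

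**Figure D5:**
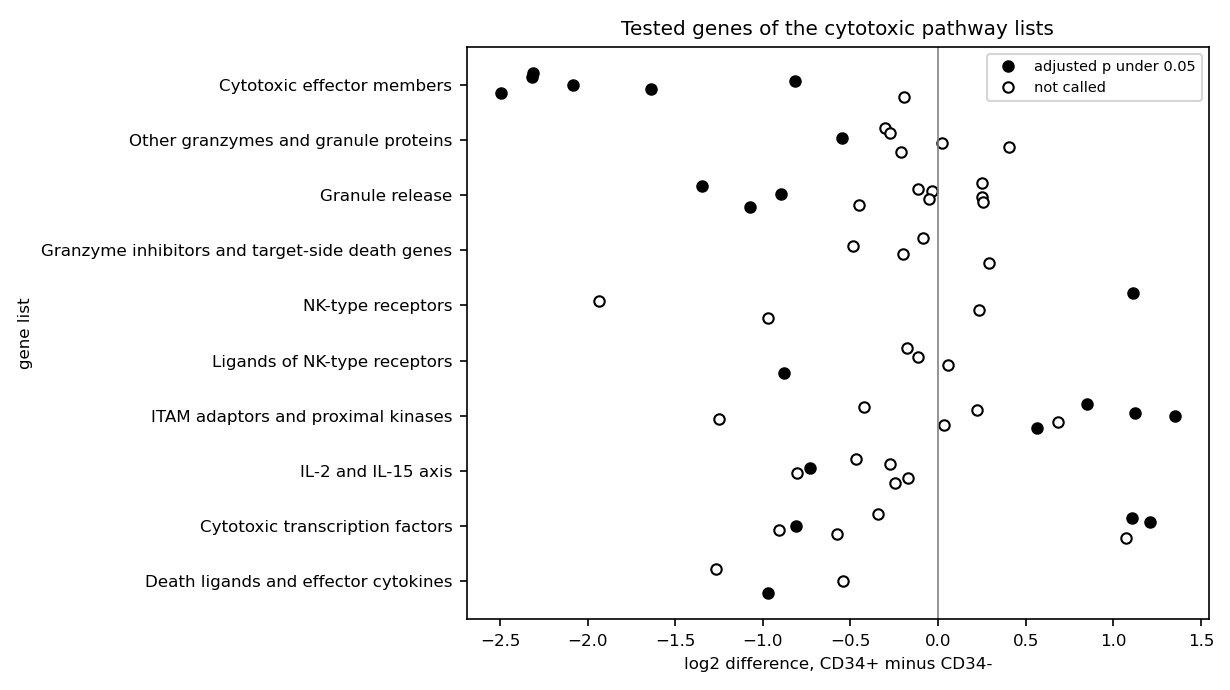
Log2 difference, CD34+ minus CD34- (horizontal axis), of every tested gene in the 9 lists of the cytotoxic pathway and of the 7 tested members, 1 point per gene, filled where the limma adjusted p was under 0.05. Ms4a4b, Prf1, Gzmc, Ctsw and Klrd1 lie lower than every called gene of the lists, and the called adaptors and kinases lie above 0. Ms4a4b and Prf1 passed the brightness filter through their CD34- signal alone and had to differ. Cd244a (-1.94), a list gene that was not called, lies lower than Klrd1 (-1.64).

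Of the genes of interleukin 2 and interleukin 15 signalling 1 of 6 was lower, the kinase gene Jak1 (-0.73, SE 0.21, limma adjusted p = 0.0258), and Il15 itself differed by -0.47 (adjusted p = 0.216). Among transcription factors of cytotoxic cells Id2 (1.21, SE 0.30, adjusted p = 0.0124) and Prdm1 (1.11, SE 0.27, adjusted p = 0.0112) were higher and Ikzf1 (-0.81, SE 0.26, adjusted p = 0.0379) was lower, of 7 tested. Tbx21 was dim in both fractions, with means of 4.25 and 4.25. Of the death ligand and cytokine genes 1 of 3 was lower, the chemokine gene Xcl1 (-0.97, SE 0.31, adjusted p = 0.0376), which with a CD34+ mean of 6.43 passed the filter through its CD34- signal alone. Of the granzyme inhibitors and target genes 0 of 4 was called by limma, Serpinb9, an inhibitor of granzyme B, differing by -0.08 (adjusted p = 0.844).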

How the data were processed

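Total RNA of 5 CD34+ and 6 CD34- samples was measured on 1-colour Affymetrix arrays, 1 array each. The authors deposited log2 signals and, per the submitters' processing notes, used MAS5, whose settings were not stated. On a linear scale the trimmed mean (2% off each end) was 500.002 to 500.004 on all arrays, which fixed the log2 scale. No further normalization was made, and the number of arrays limits the precision. Of 45101 probe sets, 34945 had 1 symbol in the platform annotation, and 34741 of these were matched by gene ID to GRCm38.p6 names. A gene was its probe set with the highest mean, and the dimmest 40% were left out (10916 genes; for single probe sets 20967, with means of at least 6.06). Fractions were compared with limma 3.58.1 in R 4.3.3 (linear model, empirical Bayes with intensity trend, Benjamini-Hochberg over all features tested, called at adjusted p under 0.05), after the step was tested on simulated data. Exact permutation tests used all 462 splits and cannot go below 0.00216. Genes were named by a rule: all members, up to 4 called genes per list, and the 3 genes most like each called member. Of the marker lists, the 2 brightest tested genes were named for immune cells only. Other genes in the text were chosen after their values were seen. The members, lists and tests were chosen with earlier results of these data known.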

Additional observations from a re-analysis of the deposited data

Results flagged for a closer look

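Within the CD34+ group 2 values stood far from the rest, both on array 1: Ms4a4b (brighter probe set) at 2.89, where the other 4 arrays lay between 6.22 and 7.24, and Prf1 (brighter probe set) at 3.86, where the others lay between 6.86 and 7.59. They stand out because the gap to the nearest array took up 0.765 and 0.803 of the group's range. Of 26 groups of values examined 2 were so far apart, and chance flags about 1 in 20. Array 1 also had the highest actin ratio (5.25) and the lowest T cell sum (693), and the part of either was not tested. Without it Ms4a4b differed by -1.74 (SE 0.30) and Prf1 by -1.64 (SE 0.26), with limma adjusted p of 0.0012 and 7.17e-04.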

How the results depend on the processing

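The counts of called member genes (6) and member probe sets (6) were the same in all 11 fits without 1 array (lowest 6, highest 6), while genes called ranged from 1865 to 2789 and probe sets called from 2971 to 4580. With the actin ratio as a covariate limma called 126 genes, 149 probe sets, 0 member genes and 0 member probe sets (2 of each at an unadjusted p under 0.05), and the median standard error over all genes went from 0.187 to 0.279. With equal medians 5608 genes and 8914 probe sets were called, and 7 members. With the dimmest 60% left out 1 member gene was called, since only Ctsw passed that filter. At an adjusted p under 0.01 there were 1004 genes and 3 members, and the mean of probe sets gave 1728 genes and 4 members. Without CD34+ arrays 1 and 2 probe sets called were 2881, and without arrays 1, 2 and 3 they were 2809 with 4 member genes; both settings were chosen after seeing the data. Raising values under the 40th percentile called the brighter Il2rb (0.84) and dimmer Prf1 (0.65) probe sets as higher. That floor was set per array, and medians of all probe sets were 6.71 to 7.23 on CD34+ and 6.36 to 6.51 on CD34- arrays. The setting itself thus tends to lift dim CD34+ values more. After quantile normalization these probe sets differed by 0.77 and 0.39 and were not called. No called member changed direction in any alternative run. The labels do not say that equal replicate numbers share a mouse, and the values do not settle it. Deviations of equally numbered arrays correlated at 0.02 to 0.19, over 0.1 in 3 of 5 pairs. Of the CD34+ arrays, 1 of 5 correlated best with the CD34- array of its own number. With the replicate block 2034 genes, 3034 probe sets, 6 member genes and 6 member probe sets were called.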

Other observations

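The 6 CD34- arrays were not alike in their cell type markers. On CD34- arrays 1 and 2 the summed melanocyte markers were 19364 and 21856, against 3325 to 5086 on CD34- arrays 3 to 6, while the T cell sum was 3146 and 3251 against 4948 to 5394. The median deviation of the 6 called members was -0.33 and -0.51 on those arrays and 0.05 to 0.43 on the others. Over the 6 CD34- arrays the 15 pairs of called members had a median Pearson r of 0.56, from -0.43 (Gzmc with Klrd1) to 0.99 (Nkg7 with Prf1), as a description of arrays that share these differences. These arrays were set side by side after their values were seen, and no test was made.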
